A study of Mus musculus with 11 samples.

Results

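The genes followed here are the mouse genes through which the polyoma virus middle T oncoprotein signals, in mammary tumours with and without an extra Sirt6 allele. They are Src, Yes1 and Fyn (Src family kinases), Shc1 (an adaptor), Pik3ca and Pik3r1 (phosphoinositide 3-kinase, PI3K), Plcg1 (phospholipase C-gamma), Ppp2r1a (the scaffold of protein phosphatase 2A, PP2A), and Akt1 and Akt2. They were chosen by name as a set, by a rule that uses no measured value, although earlier results of these data were known when the set was proposed. All probes that the platform annotation pairs with 1 of these 10 symbols were taken, which gave 22 of the 45281 probes on the array, and 10 of the 19057 genes with a named probe. RNA from 11 tumours, taken from females at 12 weeks of age, was read on 1 Illumina Mouse WG-6 v2.0 array each. All of them came from PyMT transgenic mice, which carry the middle T oncogene. In the PyMT group (6 arrays) the mice were wild-type for the Sirt6BAC allele, and in the PyMT/SIRT6 group (5 arrays) they carried it, an added Sirt6 gene that raises SIRT6, a chromatin deacylase. Neither the promoter of the middle T transgene nor the strain is stated in the labels. Nor do they tie tumours to individual mice. The p-values therefore only weigh differences and correlations against the scatter among these tumour samples. That scatter need not be the scatter among mice and may be technical.

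Middle T is a membrane protein with no enzyme activity of its own. It binds the scaffold and catalytic subunits of PP2A and, through them, Src, Yes or Fyn, which then phosphorylate tyrosines on middle T. These tyrosines recruit Shc, which leads to Ras and ERK signalling, the p85 subunit of PI3K, which leads to Akt, and phospholipase C-gamma. Much of this control acts on proteins by binding and phosphorylation, which an RNA array does not read.

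As a check of the labels, the brightest Sirt6 probe lay between 199 and 236 in PyMT and between 291 and 399 in PyMT/SIRT6 tumours, without overlap (log2 change 0.61 ± 0.09 SE, limma adjusted p = 0.0574). Of 10 luminal epithelial markers 9 were above the background described next on every array. The skeletal muscle markers (17 of 18 with a probe) had sums of 3121 to 134131 intensity units for PyMT tumours and of 3217 to 130703 for PyMT/SIRT6 tumours. Their mean log2 value was above 9 in PyMT replicate 5 and PyMT/SIRT6 replicates 1, 4 and 5 (the muscle-rich arrays), and results are given without these 4 where their sign changes.

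Of the 10 genes only Src, Shc1, Pik3r1 and Ppp2r1a had a probe that stood above background on every array. Background was read from 1523 probes of olfactory, vomeronasal and trace amine receptor genes, which are not known to be used in mammary tissue. Their median lay between 148 and 149 on each array, and their 99th percentile between 168 and 175. Of the 22 member probes 5 exceeded this percentile on all 11 arrays, 12 on none and 5 on some arrays, while over the whole array 27.3% of probes exceeded it on all arrays. A probe not above background gives only an upper bound on its transcript: it does not show that the gene is silent, since another probe of the same gene can be bright, as in Shc1 and Pik3r1.

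**Figure D1:**
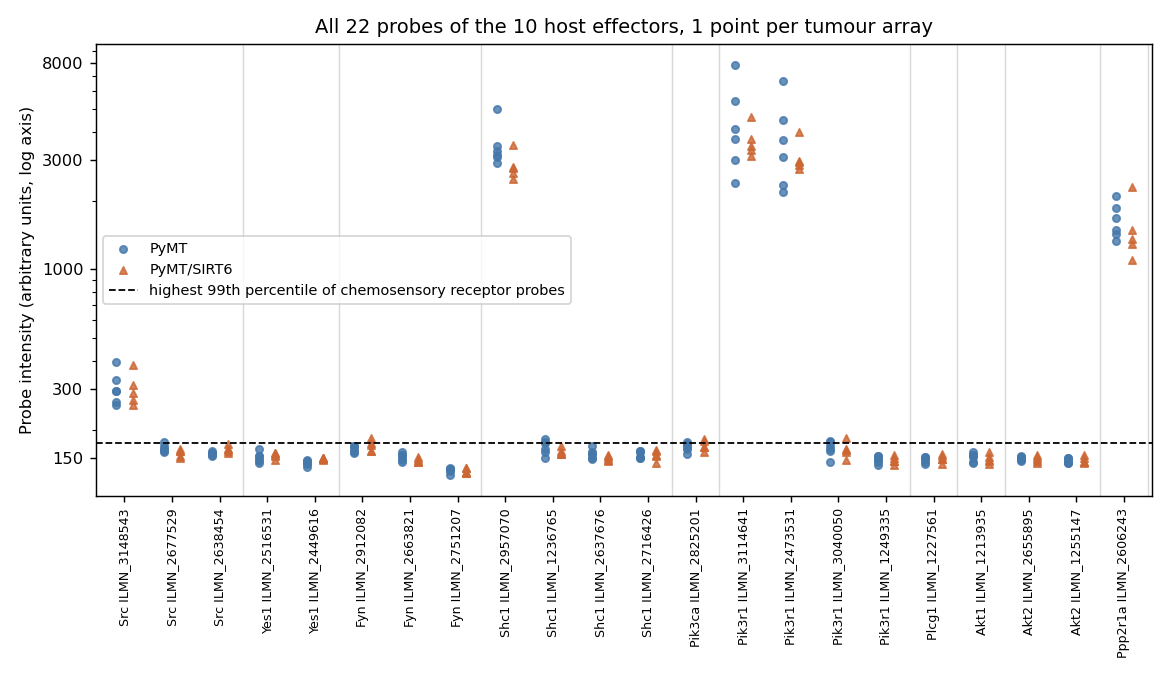
Intensity of each of the 22 probes (log axis, arbitrary units) for 6 PyMT (circles) and 5 PyMT/SIRT6 arrays (triangles), with the highest 99th percentile of chemosensory receptor probes (175) as a dashed line. The brightest probe of Src, Shc1, Pik3r1 and Ppp2r1a and a second probe of Pik3r1 lie above the line, and the other 17 lie around or under it.

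Src itself, the founding member of its kinase family, was measured by probe ILMN_3148543. It ranged from 256 to 393 in PyMT tumours, with a median of 295. In PyMT/SIRT6 replicates 1 to 5 it was 312, 382, 290.2, 269 and 255. The genotypes overlapped throughout: PyMT replicate 5 was highest, PyMT/SIRT6 replicate 2 next and PyMT/SIRT6 replicate 5 lowest. The change was −0.02 ± 0.13 (log2, limma SE; adjusted p = 0.994; exact permutation p = 0.909), with a 95% interval of 0.816-fold to 1.20-fold. This interval refers to intensity that includes background, so the interval for the transcript is wider. Without the 4 muscle-rich arrays the Src change was 0.22 ± 0.15 (limma adjusted p = 0.997). The other probes of Src, ILMN_2677529 and ILMN_2638454, stayed between 150.3 and 176, near background.

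Neither Yes1 nor Fyn, the other Src family kinases that bind middle T, had a probe clearly above background. Yes1 probe ILMN_2516531 lay between 143 and 165 over all 11 arrays and ILMN_2449616 between 138 and 151, under the 99th percentile everywhere. The second Yes1 probe was nonetheless the only one of the 22 on which the genotypes did not overlap. It ran from 137.82 to 146.64 in PyMT arrays and stood at 149.87, 147.32, 149.98, 148.39 and 150.72 in PyMT/SIRT6 replicates 1 to 5. The difference was 0.06 ± 0.02 on the log2 scale (limma unadjusted p = 0.012, adjusted p = 0.979 over all probes; exact permutation p = 0.00433), and 0.464% of all probes had no overlap in either direction, with every PyMT/SIRT6 array above on 0.232%. Among the 14726 features of the main test the share without overlap was 0.489%, and all 6 members tested there overlapped. The Yes1 signal there is at the background level, so its small shift is no measure of Yes1 RNA.

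Fyn, a kinase also prominent in lymphocytes and brain, exceeded background on 3 arrays by its brightest probe, ILMN_2912082. That probe lay between 159 and 169 in PyMT tumours with a median of 165, and at 161, 170.5, 184, 174 and 161 in PyMT/SIRT6 replicates 1 to 5. The values overlapped and the change was 0.05 ± 0.04 (limma adjusted p = 0.983). T and NK cell markers (8 of 11 with a probe, 1 above background on all arrays) had sums of 1549 to 1881 for PyMT tumours and of 1643 to 2202 for PyMT/SIRT6 tumours, and their part in the Fyn values was not tested. The remaining Fyn probes ran from 127 to 160.1.

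Shc1, the adaptor that links middle T to Grb2 and Ras, had the lowest unadjusted p of the 6 members in the main test, each read by its brightest probe. Probe ILMN_2957070 ranged from 2909 to 5036 in PyMT tumours, with a median of 3227. In PyMT/SIRT6 replicates 1 to 5 it was 2489, 3495, 2802, 2763 and 2627. In 4 of 5 PyMT/SIRT6 tumours Shc1 lay below every PyMT value, and replicate 2 was higher than all PyMT tumours but replicate 3. The geometric mean was 3427 in PyMT and 2816 in PyMT/SIRT6, 0.822-fold, a change of −0.28 ± 0.14 that did not pass the threshold (limma unadjusted p = 0.0718, adjusted p = 0.983; exact permutation p = 0.0693). With single arrays left out the change ran from −0.36 (without PyMT/SIRT6 replicate 2) to −0.17 (without PyMT replicate 3). Without the 4 muscle-rich arrays it was −0.14 ± 0.23. The other 3 Shc1 probes stayed between 143 and 183.

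The PI3K subunits differed in what the array could read. Pik3r1, which encodes the p85 regulatory subunit that docks on middle T, was bright on a pair of its 4 probes. Probe ILMN_3114641 ran from 2393 to 7846 in PyMT tumours, with a median of 3910.3. In PyMT/SIRT6 replicates 1 to 5 it was 3130.5, 4627, 3333, 3455 and 3699. Both the highest and the lowest tumours, replicates 5 and 1, were PyMT, and all PyMT/SIRT6 values fell inside the PyMT range. The SD of log2 Pik3r1 was 0.61 in PyMT (n = 6) and 0.22 in PyMT/SIRT6 (n = 5), a difference that was not tested. The change was −0.18 ± 0.25 (limma adjusted p = 0.983), and without the 4 muscle-rich arrays it was 0.13 ± 0.29.

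The second bright Pik3r1 probe, ILMN_2473531, is annotated to another RefSeq transcript of the gene and followed the first closely. It ran from 2182 to 6619 in PyMT tumours and from 2745 to 3967 in PyMT/SIRT6 tumours, with the same 3 arrays on top. The log2 difference between both probes stayed between 0.13 and 0.36 over the 11 arrays. Its change was −0.17 ± 0.24 (limma, all probes, adjusted p = 0.982). Within a genotype the log2 SD was 0.48 for Pik3r1, 0.32 for Ppp2r1a, 0.25 for Shc1 and 0.23 for Src. Among the 3682 brightest tested features, where background compresses the SD least, 6.63% had a larger SD than Pik3r1, 24.2% than Ppp2r1a, 46.1% than Shc1 and 52.8% than Src. Pik3r1 thus varied more than most bright genes, and Src and Shc1 lay near the middle. Over all 14726 features, dim ones included, the shares were 3.0%, 10.4%, 20.2% and 23.6%.

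Pik3ca, the p110-alpha catalytic subunit of PI3K, had a single probe near background, ILMN_2825201, which was above it on 4 arrays. It lay between 157 and 177 in PyMT tumours with a median of 169, and at 168, 181, 169, 159 and 179 in PyMT/SIRT6 replicates 1 to 5. The genotypes overlapped, with a change of 0.02 ± 0.04 (limma adjusted p = 0.983). Plcg1, which cleaves phosphatidylinositol bisphosphate to release calcium-mobilising and PKC-activating messengers, was between 141 and 156 on its single probe, above background on no array.

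Ppp2r1a, the PP2A scaffold that middle T occupies in place of a regulatory subunit, was bright on its single probe, ILMN_2606243. It ranged from 1326 to 2092 in PyMT tumours, with a median of 1588. In PyMT/SIRT6 replicates 1 to 5 it was 1482, 2286, 1295, 1104 and 1360.3. PyMT/SIRT6 tumours held both the highest value, in replicate 2, and the lowest, in replicate 4. The change was −0.16 ± 0.18 (limma adjusted p = 0.983; exact permutation p = 0.437), or 0.898-fold with a 95% interval of 0.687-fold to 1.17-fold. Without the 4 muscle-rich arrays it was 0.12 ± 0.25.

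Akt1 and Akt2, the kinases activated downstream of PI3K, could not be read on this array. The single Akt1 probe lay between 142 and 160.4, and both Akt2 probes between 142 and 155, under the background percentile on every array. The genotypes overlapped on all 3 Akt probes.

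**Figure D2:**
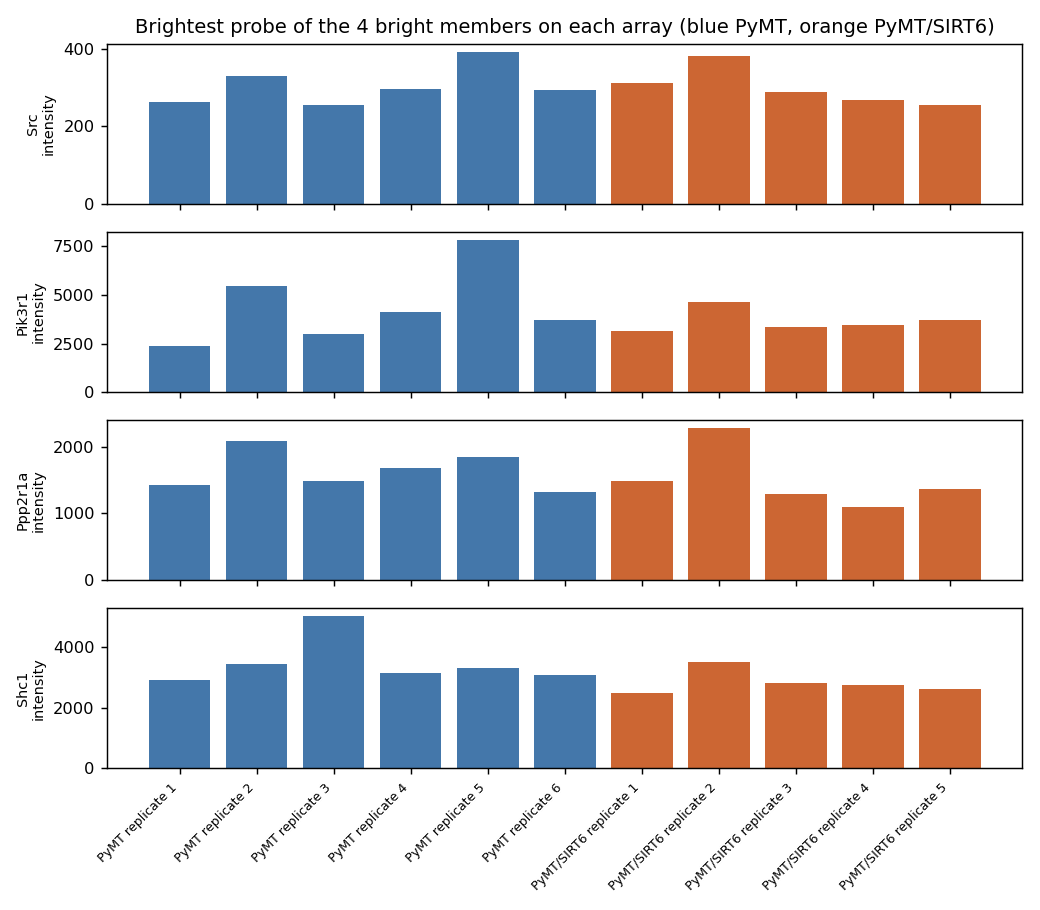
Intensity of the brightest probe of Src, Pik3r1, Ppp2r1a and Shc1 (bars from 0, arbitrary units) on each of the 11 arrays. PyMT replicates 2 and 5 and PyMT/SIRT6 replicate 2 are the 3 highest for Src, Pik3r1 and Ppp2r1a. Shc1 is highest in PyMT replicate 3 (5036), followed by the same 3 arrays.

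Across all members, no gene passed the adjusted threshold of 0.05 between genotypes. Yes1, Plcg1, Akt1 and Akt2 were among the dimmer 50% of features and were left out of the main test, so 6 of 10 members entered it. In limma 0 of these 6 passed, and 0 had an unadjusted p under 0.05. Over all 14726 features 2 passed (0.0136%) and 4.43% had an unadjusted p under 0.05. With all 45281 probes tested and none left out, 0 of 22 member probes passed (0.00663% of all probes did), and 2 had an unadjusted p under 0.05, both higher and both at background: the dim Yes1 probe and Src probe ILMN_2638454 (0.06 ± 0.03). Of all probes 4.91% had such a p, and 2.2% on the higher side. By the exact permutation test the same pair of probes had unadjusted p of 0.00433 and 0.0195, and the smallest p these arrays allow is 0.00216. The probes of Src did not share a direction: the dim ILMN_2677529 differed by −0.07 ± 0.03 (limma unadjusted p = 0.0549) and the bright ILMN_3148543 by −0.02 ± 0.12.

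Levels of different probes cannot be set against each other on an array, since each binds its target differently, so family members were compared by whether their ratio within an array differed between genotypes. Src relative to Yes1 differed by −0.04 (log2; exact permutation p = 0.762) and Src relative to Fyn by −0.06 (exact permutation p = 0.613). Yes1 relative to Fyn differed by −0.02 (exact permutation p = 0.61) and Akt1 relative to Akt2 by −0.01 (exact permutation p = 0.803). Pik3ca relative to Pik3r1 differed by 0.20 (exact permutation p = 0.517). Adjusted over the 5 pairs every p was 0.803. The Yes1, Akt1 and Akt2 probes were above background on 0 arrays, Fyn on 3 and Pik3ca on 4. The Akt1 to Akt2 ratio thus sets background against background, and Yes1 to Fyn sets background against a probe near it. The other ratios set a gene against a probe at or near background. These ratios therefore say nothing on whether family members changed unequally.

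Src, Pik3r1 and Ppp2r1a shared their 3 highest tumours, PyMT replicates 2 and 5 and PyMT/SIRT6 replicate 2. Their lowest tumours differed: PyMT/SIRT6 replicate 5 for Src, PyMT replicate 1 for Pik3r1 and PyMT/SIRT6 replicate 4 for Ppp2r1a. In Shc1 the same 3 high tumours came next after PyMT replicate 3, at 3446, 3300 and 3495, so this trait is not particular to the other bright members. For Src and Pik3r1, Pearson's r was 0.80 over 11 arrays (permutation p = 0.00333, adjusted over 11 pairs 0.035) and Spearman's rho 0.73 (permutation p = 0.0143, adjusted 0.111). For Src and Ppp2r1a, r was 0.77 (permutation p = 0.00637, adjusted 0.035) and rho 0.65 (permutation p = 0.0332, adjusted 0.122). For Pik3r1 and Ppp2r1a, r was 0.63 (permutation p = 0.0395, adjusted 0.145) and rho 0.55 (permutation p = 0.0822, adjusted 0.226). The 11 pairs were the 5 family pairs and, chosen after the values were seen, all 6 pairs of the bright members.

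These relations rest in part on PyMT replicate 5 and PyMT/SIRT6 replicate 2, the arrays farthest from the Src median. Without both, r was 0.62 for Src and Pik3r1 (exact permutation p = 0.0673) and 0.60 for Src and Ppp2r1a (exact permutation p = 0.0838). Over all single omissions r with Src ran from 0.67 to 0.85 for Pik3r1 and from 0.66 to 0.80 for Ppp2r1a. The adjusted call ended without any 1 of 4 arrays for Pik3r1 and of 7 for Ppp2r1a. With the genotype means removed, r was 0.81 and 0.78, and over the 6 PyMT arrays alone 0.97 and 0.68. High correlations were not rare here: 4.03% of the tested features had a higher r with Src than Pik3r1 did, and 5.56% a higher r than Ppp2r1a. All genes on an array also share its RNA and its normalization, and in bulk tumours fewer cells of a type and less RNA per cell cannot be told apart.

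Shc1 did not follow Src over all arrays (r = 0.07, permutation p = 0.833; rho = 0.34, permutation p = 0.313). PyMT replicate 3 had the highest Shc1 and, after PyMT/SIRT6 replicate 5, the lowest Src, and without it r was 0.68 (permutation p adjusted 0.071). For Shc1 and Pik3r1, r was 0.15 (permutation p = 0.627) and rho 0.39 (permutation p = 0.237), and without PyMT replicate 3 r was 0.66 (permutation p adjusted 0.071). Shc1 and Ppp2r1a gave r = 0.40 (permutation p = 0.228, adjusted 0.501) and rho = 0.70 (permutation p = 0.0201, adjusted 0.111), and without PyMT replicate 3 r was 0.78 (permutation p adjusted over 11 pairs 0.0307). PyMT replicate 3 was singled out from these values, and the adjusted p does not allow for that choice. Among the family pairs, r was −0.22 for Src and Yes1, 0.16 for Src and Fyn, 0.44 for Yes1 and Fyn, 0.25 for Akt1 and Akt2, and 0.19 for Pik3ca and Pik3r1, with rho of −0.25, 0.17, 0.44, 0.22 and 0.26. Their permutation p ran from 0.178 to 0.636 for r and from 0.182 to 0.615 for rho, adjusted 0.488 to 0.699 and 0.4 to 0.615.

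**Figure D3:**
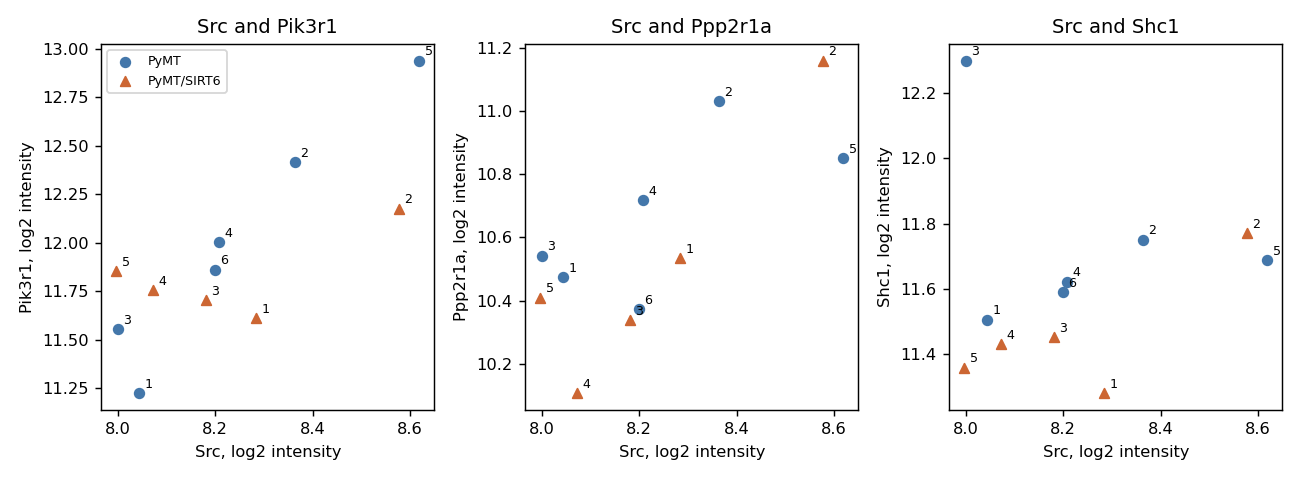
Log2 intensity of Pik3r1, Ppp2r1a and Shc1 against Src, 1 point per array, numbered by replicate (circles PyMT, triangles PyMT/SIRT6). Pik3r1 and Ppp2r1a are highest where Src is high, and PyMT replicate 3 stands apart in the Shc1 panel.

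Levels of the 4 bright members were also set beside the marker lists, and few relations held after adjustment. The mean log2 level of neutrophil markers (6 of 7 with a probe, 1 above background on all arrays) had negative correlations with Src (r = −0.82, permutation p = 0.00253; rho = −0.77, permutation p = 0.0076), Pik3r1 (r = −0.83, permutation p = 0.00164; rho = −0.90, permutation p = 0.00034) and Ppp2r1a (r = −0.79, permutation p = 0.00376; rho = −0.61, permutation p = 0.0512). Adjusted over 48 relations of the 4 bright members with 12 marker lists, 0 passed by r (0.0602 for each of these 3) and 1 by rho, Pik3r1 with neutrophil markers (permutation p adjusted 0.0163). Without the 2 arrays farthest from the median of Src, Pik3r1 or Ppp2r1a the r values were −0.76, −0.92 and −0.50. The neutrophil sums ran from 1758 to 5758 in PyMT tumours and from 1715 to 4656 in PyMT/SIRT6 tumours. The relations below did not pass the adjusted threshold by r or by rho. Luminal epithelial markers correlated with Src (r = 0.61, permutation p = 0.0437, adjusted 0.235; rho = 0.64, permutation p = 0.0401, adjusted 0.192) and with Pik3r1 (r = 0.54, permutation p = 0.0928, adjusted 0.337; rho = 0.66, permutation p = 0.0314, adjusted 0.168). Erythroid markers (3 of 5 with a probe, 1 above background on all arrays) gave r = −0.51 (permutation p = 0.104) and rho = −0.66 (permutation p = 0.0304) with Src, and r = −0.62 (permutation p = 0.044) and rho = −0.71 (permutation p = 0.0177) with Pik3r1, adjusted 0.142 to 0.337. Milk genes (8 of 8 with a probe, 4 above background on all arrays) gave r = −0.71 (permutation p = 0.00652) and rho = −0.79 (permutation p = 0.0055) with Shc1, and r = −0.65 (permutation p = 0.0315) and rho = −0.78 (permutation p = 0.00607) with Ppp2r1a, adjusted 0.0782 to 0.235. T and NK cell markers gave r = −0.62 (permutation p = 0.041, adjusted 0.235) and rho = −0.55 (permutation p = 0.0805, adjusted 0.322) with Shc1. Macrophage markers gave r = −0.54 (permutation p = 0.0831, adjusted 0.337) and rho = −0.68 (permutation p = 0.0256, adjusted 0.168) with Ppp2r1a. With Shc1, macrophage markers (9 of 11 with a probe, 7 above background on all arrays) had a negative correlation (r = −0.74, permutation p = 0.00908, adjusted 0.0872; rho = −0.74, permutation p = 0.0128, adjusted 0.122). The macrophage mean log2 level, used for these correlations, overlapped between genotypes (8.86 to 9.21 in PyMT, 9.07 to 9.37 in PyMT/SIRT6). The sums ran from 5996 to 8362 in PyMT tumours and from 8399 to 9827 in PyMT/SIRT6 tumours, a narrow gap. The part of these cells in the values of Shc1, Src, Pik3r1 and Ppp2r1a was not tested.

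The windows of 150 bases before the annotated start sites of Src, Pik3r1 and Ppp2r1a are shown because these genes had the same 3 highest tumours. They were taken from RefSeq's GRCm38.p6 promoters, which held all 10 members, and are written 5′ to 3′ on the gene's strand, with matches in capitals. The motifs searched, on both strands, were the GC box GGGCGG, the CCAAT box CCAAT, the TATA box TATAAA and the ETS core CCGGAAGT. They lie at chr2:157424143-157424292 (plus strand) for Src, chr13:101768218-101768367 (minus strand) for the first and chr13:101692631-101692780 (minus strand) for the second Pik3r1 start, and chr17:20945304-20945453 (plus strand) for Ppp2r1a.
Src: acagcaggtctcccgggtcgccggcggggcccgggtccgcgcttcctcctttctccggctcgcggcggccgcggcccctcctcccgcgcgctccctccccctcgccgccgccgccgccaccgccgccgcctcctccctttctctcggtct
Pik3r1 first start: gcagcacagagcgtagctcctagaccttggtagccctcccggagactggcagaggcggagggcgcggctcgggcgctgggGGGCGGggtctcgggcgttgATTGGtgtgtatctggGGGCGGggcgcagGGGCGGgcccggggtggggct
Pik3r1 second start: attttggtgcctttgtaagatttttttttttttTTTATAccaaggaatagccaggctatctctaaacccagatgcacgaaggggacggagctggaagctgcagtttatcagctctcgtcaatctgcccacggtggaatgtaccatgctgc
Ppp2r1a: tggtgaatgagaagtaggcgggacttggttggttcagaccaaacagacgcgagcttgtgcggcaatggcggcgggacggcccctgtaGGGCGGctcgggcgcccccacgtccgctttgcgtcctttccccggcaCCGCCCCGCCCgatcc
None of the searched motifs lay before all 3 genes. The GC box occurred 3 times before the first Pik3r1 start and 3 times, in part overlapping, before Ppp2r1a, but in these letters not before Src, whose window was 80.0% G and C. A CCAAT match lay before the first Pik3r1 start and a TATAAA match before the second, both on the opposite strand. The TATAAA match lay toward the 5′ end of its window, which was 44.7% G and C. The ETS core was found in none of the 4 windows shown. Both Shc1 windows, which are not shown, held the CCAAT box and none of the other motifs. Whether any match acts in these promoters was not tested. Over 32851 RefSeq promoter windows of the same length 28.6% held the GC box, 24.5% the CCAAT box, 7.57% the TATA box and 2.40% the ETS core.

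The other genes of the pathway gave a like picture, with no gene past the threshold. Of 126 genes on 8 lists written by role, 109 had a named probe and 90 were tested. In limma 0 passed in either direction (0.0136% of all features did), 0 had an unadjusted p under 0.05 on the higher side and 5 on the lower, where 2.04% and 2.39% of all features lay. Fgr and Ywhae, which are among these 5, were near background. Of the 90, 30 were higher and 60 lower in PyMT/SIRT6 tumours, with a median change of −0.04 on the log2 scale, against 6910 higher and 7816 lower and a median of −0.01 over all features. Genes named below are the 3 with the smallest unadjusted p of each list, with limma adjusted p from 0.983 to 0.985. Of these, Fgr, Ksr1, Spry4, Pik3cd, Prkce and Ywhae had mean log2 levels of 7.27 to 7.40, at or near background. Their changes say little about their RNA, yet they enter the counts and medians of their lists. Nf1 (7.45 in PyMT, 7.39 in PyMT/SIRT6), Rasgrp1 (7.42 and 7.53) and Foxo3 (7.56 and 7.47) were at most a little brighter.

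Among the other Src family kinases and their regulators 5 genes were tested, 2 higher and 3 lower, with a median change of −0.0045. Fgr, a Src family kinase of myeloid cells, differed by −0.07 ± 0.03 at a dim level. Csk, which phosphorylates the inhibitory tail tyrosine of Src kinases, differed by 0.19 ± 0.09, and the related kinase Frk by 0.03 ± 0.08. Of 16 other PP2A subunits and regulators 5 were higher and 11 lower, with a median of −0.04. Set, an inhibitor of PP2A, differed by −0.25 ± 0.10, the catalytic subunit Ppp2ca, which also binds middle T, by −0.18 ± 0.12, and the PP2A activator Ptpa by −0.11 ± 0.08.

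On the way from Shc to ERK 10 genes were tested, 2 higher and 8 lower, with a median of −0.07. The scaffold Ksr1 differed by 0.05 ± 0.03 at a dim level, the small GTPase Nras by −0.14 ± 0.10 and its brake Nf1 by −0.06 ± 0.05. Genes that ERK signalling induces, or that feed back on it, were evenly divided, 6 higher and 6 lower, with a median of 0.03. Of these, Spry4, an inhibitor of receptor signalling, differed by 0.10 ± 0.08 at a dim level. The ERK phosphatase Dusp6 differed by −0.19 ± 0.16 and the stress-response gene Ier3 by 0.25 ± 0.23.

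Other PI3K subunits and lipid phosphatases were 3 higher and 8 lower (median −0.03). The PI3K inhibitor Pik3ip1 differed by −0.15 ± 0.10 and the p85-beta gene Pik3r2 by −0.15 ± 0.12. The leukocyte catalytic subunit Pik3cd differed by −0.03 ± 0.03 at a dim level. Of 16 genes of the Akt and mTOR branch 4 were higher and 12 lower (median −0.05). The Akt-restrained transcription factors Foxo3 and Foxo1 differed by −0.10 ± 0.07 and −0.21 ± 0.18, and Rptor, the scaffold of mTOR complex 1, by −0.17 ± 0.15. In the phospholipase C-gamma branch 6 were higher and 5 lower (median 0.0042). Among them were the protein kinase C genes Prkce (−0.06 ± 0.03, dim) and Prkcd (0.14 ± 0.15) and the Ras exchange factor Rasgrp1 (0.11 ± 0.06).

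The list with the lowest median held the 14-3-3 proteins, phosphoserine-binding proteins that also bind middle T, with the transcriptional coactivators Yap1 and Wwtr1. Of 9 tested genes 2 were higher and 7 lower, with a median of −0.19. Over all features 6910 were higher and 7816 lower, with a median of −0.01. On the lower side 3 of the 9 had a limma unadjusted p under 0.05, as did 2.39% of all features. None passed the adjusted threshold, and the list is singled out only because its median was the lowest of all the lists. Ywhae differed by −0.08 ± 0.03 at a dim level (mean log2 7.35 in PyMT, 7.27 in PyMT/SIRT6), so its shift says little about its RNA. Ywhah differed by −0.27 ± 0.11 and Ywhaz by −0.29 ± 0.13. Ywhaz was thus at 0.815-fold of its PyMT level over all arrays, but at a log2 change of −0.06 ± 0.18 without the 4 muscle-rich arrays, where Ywhah was at −0.15 ± 0.17 and Ywhae at −0.05 ± 0.04.

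**Figure D4:**
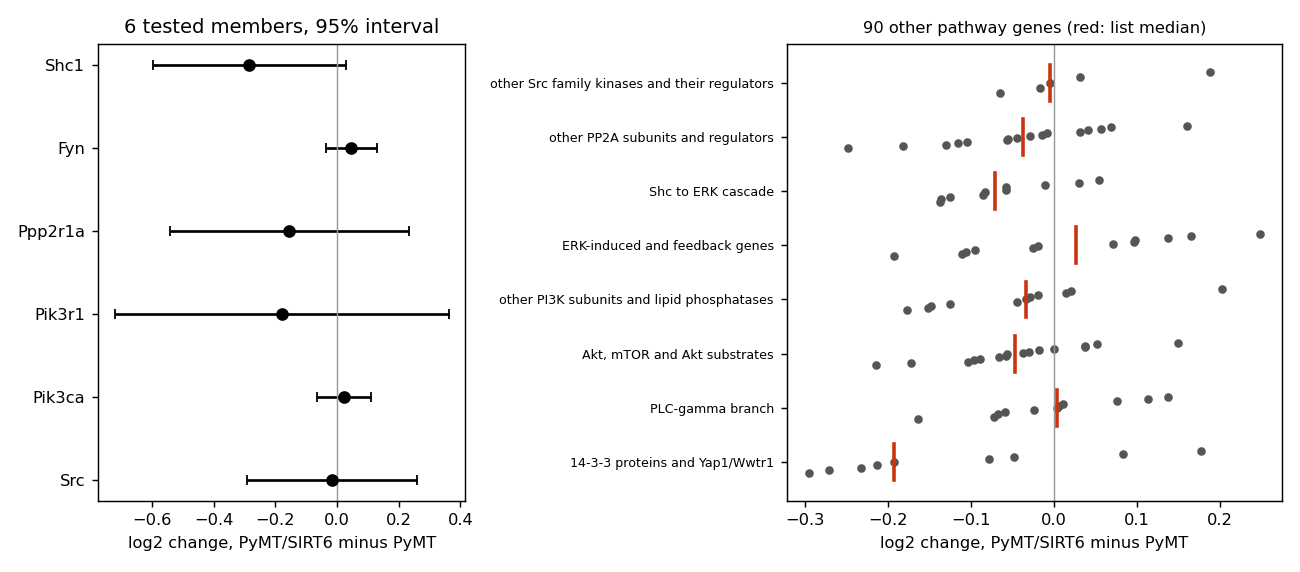
Left, log2 change (PyMT/SIRT6 minus PyMT) of the 6 tested members with limma's 95% interval. Right, the change of each of 90 other tested pathway genes by list, with the list median as a red line. All 6 intervals include 0, and the 14-3-3 list has the lowest median (−0.19).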

How the data were processed

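Per the labels' protocols, biotinylated cRNA was made with a MessageAmp kit and read on the Illumina arrays. The authors deposited 1 linear intensity per probe and array. No label states their background treatment or normalization; sorted arrays differed by at most 1.08% at any rank, so no scaling was added. Intensities ran from 117 to 40180.3, with background left in, which makes fold changes of dim probes too small. No detection p was used, and precision is limited by how many arrays there are. Probe names came from the platform annotation (34885 of 45281 probes with 1 symbol, 18 with several, 10378 with none), and 34807 matched a RefSeq gene.

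The brightest probe stood for each gene (29453 features), the dimmer 50% were left out (mean intensity under 159), and 14726 were tested on the log2 scale with limma 3.58.1 in R 4.3.3 (lmFit, eBayes with trend, no covariate), with Benjamini-Hochberg adjustment at 0.05. Ratios used the exact two-sided permutation test over 462 splits, and correlations 100000 permutations, or all of them under 10 arrays, in Python 3.11.15. Members and lists were chosen with earlier results of these data known, and the background from chemosensory receptors after the values were seen. Named were all members, Sirt6 as a check and the 3 genes of smallest p per pathway list. Simulated data for PyMT/SIRT6 against PyMT on 14726 features gave back 61.2% of 67 genes changed by 0.5, 94.0% of 67 changed by 1 and 98.5% of 66 changed by 2. The changed genes were drawn from all of these features, dim ones included. Only 3.0% of the features had a larger SD than Pik3r1, 10.4% than Ppp2r1a, 20.2% than Shc1 and 23.6% than Src. The recovery shares are therefore too high for these members. Alternatives were other filters, probe means, centring, normexp with an offset of 16, an added 50, other eBayes settings, array weights, deposit order as a block, a muscle covariate and single arrays left out. Added after seeing the data was leaving out the 4 muscle-rich arrays. Samples were grouped by the genotype label, and replicate numbers follow deposit order.

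The 12 marker lists covered luminal and basal epithelium, milk-producing epithelium, fibroblasts, endothelium, T and NK cells, B and plasma cells, macrophages, neutrophils, adipocytes, skeletal muscle and erythroid cells. The ranges of their mean log2 levels in PyMT and PyMT/SIRT6 arrays were 9.62 to 10.34 and 9.81 to 10.20 for luminal, 8.99 to 9.61 and 8.85 to 9.17 for basal, 9.09 to 10.71 and 9.83 to 10.78 for milk, 8.04 to 8.56 and 8.12 to 8.74 for fibroblast, 7.80 to 7.93 and 7.75 to 7.94 for endothelial, 7.22 to 7.29 and 7.21 to 7.30 for B cell, 7.30 to 7.92 and 7.34 to 7.76 for adipocyte, and 8.14 to 10.07 and 8.22 to 9.08 for erythroid markers.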

Additional observations from a re-analysis of the deposited data

Results flagged for a closer look

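Of 44 groups of values (22 member probes in each genotype), 2 had an array far from the rest by Dixon's gap ratio, where chance flags about 1 in 20 groups. In PyMT tumours the bright Shc1 probe was highest in replicate 3, at 5036, with a gap to the next tumour of 0.691 of the group's range (critical value 0.625). In PyMT/SIRT6 tumours Pik3r1 probe ILMN_2473531 was highest in replicate 2, at 3967, with a gap of 0.781 of the range (critical value 0.71).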

How the results depend on the processing

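No paired analysis was possible because the replicate numbers follow deposit order and pair no samples. None of the members and pathway genes tested passed under the 14 other settings or with any single array left out. All 10 members were tested with no filter, 8 with the loosest filter, 5 with probe means, 4 with the strictest filter and 6 otherwise. Over all features the 2 calls became 4 with probe means, with normexp or with array weights, 6 with every probe tested, 1 with the deposit order block, 0 without the 4 muscle-rich arrays, and 1 to 3 when single arrays were left out; the cause was not tested. Without those 4 arrays, which leaves 7, the sign turned for Src (0.22), Pik3r1 (0.13), Ppp2r1a (0.12), Dusp6 (0.015), Pik3r2 (0.036) and Pik3cd (0.013), for the ratios Src to Yes1 (0.21), Src to Fyn (0.10), Akt1 to Akt2 (0.0018) and Pik3ca to Pik3r1 (−0.074), and for the correlations of Akt1 with Akt2 (−0.090) and Src with Shc1 (−0.16), none of which passed. There r stayed at 0.81 for Src with Pik3r1 and with Ppp2r1a, but the adjusted p was 0.155 for both. With probe means Yes1 to Fyn was 0.045, Shc1 with Pik3r1 −0.021, Src with Pik3r1 0.79 (adjusted p = 0.0623) and Src with Ppp2r1a 0.70 (adjusted p = 0.0661). With probe means Fyn, Fgr, Ksr1 and Prkce fell under the filter and had no value, as did Fyn, Pik3ca and 10 of the named pathway genes under the strictest filter.

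Single omissions gave changes of −0.11 to 0.059 for Src and −0.33 to 0.0084 for Pik3r1, ratios of −0.15 to 0.030 (Src to Yes1), −0.15 to 0.0051 (Src to Fyn), −0.049 to 0.0010 (Yes1 to Fyn) and −0.031 to 0.011 (Akt1 to Akt2), and r of −0.45 to 0.0044 (Src, Yes1), −0.029 to 0.42 (Akt1, Akt2), −0.043 to 0.68 (Src, Shc1) and 0.34 to 0.78 (Shc1, Ppp2r1a). Src with Pik3r1 ran from 0.67 to 0.85 and missed the adjusted threshold without PyMT replicates 1 (0.79), 4 (0.81) or 5 (0.67) or PyMT/SIRT6 replicate 4 (0.80). Src with Ppp2r1a ran from 0.66 to 0.80 and missed it without PyMT replicates 1 (0.77), 2 (0.77), 4 (0.78) or 5 (0.79) or PyMT/SIRT6 replicates 2 (0.66), 4 (0.77) or 5 (0.76). Background signal limits what can be said of Yes1, Fyn, Pik3ca, Plcg1, Akt1 and Akt2, whose RNA could differ between genotypes without showing here.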
